A study of Oryza sativa with 10 samples.

Results

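The regions described here carried an H3K36me3 peak in the rice variety GL and in exactly 1 of the varieties 93-11 and TQ. The H3K36me3 peaks of 5 leaf libraries were pooled, intervals that shared at least 1 bp were merged, and 1290 of the 13113 merged regions met this rule. In 458 of them the second marked parent was 93-11 (GL+93-11 regions), and in 832 it was TQ (GL+TQ regions). The members were thus chosen by the peak calls in GL, 93-11 and TQ, whose parental values below are a description, while the peaks of the hybrids entered only through the merging of intervals. The libraries came from the hybrids GL×93-11 and GL×TQ, which are F1 plants that share GL as a parent, and from the inbred varieties GL (Guangluai-4), 93-11 (Yangdao-6) and TQ (Teqing). All are indica rice without a transgene or treatment, and the tissue was the second fully expanded leaf. Leaves from 3 plots were pooled for each genotype and each mark was sequenced in 1 library per genotype, so no value has a replicate error and no difference was tested. Intervals in brackets are 95% intervals for counting error only, and regions of 1 library are not replicates.

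H3K36me3 is trimethylation of lysine 36 of histone H3. It is written by methyltransferases that travel with elongating RNA polymerase II and lies over the bodies of transcribed genes. H3K27me3, the second mark of the study, is set by Polycomb proteins and is found over repressed genes. A first-generation hybrid holds 1 genome copy from each parent. At a GL+93-11 region both parents of GL×93-11 were marked but only the GL parent of GL×TQ, and at a GL+TQ region the hybrids change places. The comparison therefore asks whether a hybrid with 2 marked parents held the mark more often, or at a higher level, than the hybrid with 1. A difference between the hybrid libraries as a whole enters the GL+93-11 and GL+TQ comparisons with opposite signs, and it leaves the mean of their gaps only if it is of equal size in both sets, which was not tested. Regions marked in all 3 parents and regions marked in GL alone served for comparison, because there both hybrids had the same number of marked parents.

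The 5 lists held 9505 to 10136 peaks, the lowest number in GL×TQ and the highest in GL×93-11. Tags in peaks were lowest in 93-11, with 5364527, against 7065157 in TQ and 7096067 in GL. Every peak carries a score, the negative log10 p-value of the peak caller times 10, and scores start at about 50 in every list. The score rises with the tags in a peak and with sequencing depth. Its median over all peaks was 142 in 93-11, 163 in TQ and 171 in GL. GL+TQ regions are those without a 93-11 peak, and the part of depth in such missing calls was not tested. Nor was its part in the classes of score used below. The level of a region is the number of tags per kb of the peaks that a library had there, per 1000000 tags in all peaks of its list, and it exists only where a peak was called. Regions are given by their position in the Nipponbare coordinates of the lists and without genes, because a gene annotation on that build was not used here. Indica reads mapped to this japonica genome can be lost where the varieties differ in sequence, and a lost read and an unmarked region cannot be told apart.

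Most members lay near the threshold of calling. The lower of the 2 parental scores was under 100 in 318 of 458 GL+93-11 regions (69.4%) and 566 of 832 GL+TQ regions (68.0%), against 2258 of the 7047 regions marked in all 3 parents. At GL+93-11 regions the median score was 107 in GL (50.5 to 1119) and 94.7 in 93-11 (up to 738). At GL+TQ regions it was 135 in GL (50.4 to 864) and 87.4 in TQ (50.1 to 561). GL+93-11 regions were the longer set, with a median of 3008 bp (quartiles 1938 and 3804), against 1960 bp (1460 and 2878) for GL+TQ regions. Regions of all 3 parents had a median of 3032 bp, and the 1362 regions of GL alone a median of 1483 bp. The sets covered 1.31 Mb and 1.85 Mb.

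The members just inside the rule show what separates a marked from an unmarked parent. The lowest parental score of any member was 50.04, at a GL+93-11 region on chromosome 4 from 28107696 to 28111129. The nearest TQ peak was 162 bp from it, and GL×TQ had a peak with 1096 tags there while GL×93-11 had none. The nearest peak of any unmarked parent stood 1 bp away, from a GL+93-11 region on chromosome 10 (2927962 to 2930608) that had a peak in neither hybrid. On chromosome 6, a GL+TQ region (26751352 to 26754527) and a GL+93-11 region (26754590 to 26756933) were direct neighbours, each 63 bp from the nearest peak of the third parent. Such borders were rare, since a peak of the third parent lay within 1 kb of 37 GL+93-11 regions (8.08%) and of 50 GL+TQ regions (6.01%). The median distance was 8371 bp to the nearest TQ peak and 9553 bp to the nearest 93-11 peak.

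In both sets the hybrid with 2 marked parents had the mark more often. At GL+93-11 regions H3K36me3 was called at 367 of 458 in GL×93-11 (80.1%, 76.2% to 83.5%) and at 275 in GL×TQ (60.0%, 55.5% to 64.4%). At GL+TQ regions it was called at 630 of 832 in GL×TQ (75.7%, 72.7% to 78.5%) and at 590 in GL×93-11 (70.9%, 67.7% to 73.9%). Of all merged regions, 77.0% had a peak in GL×93-11 and 72.1% in GL×TQ, and of the 9699 with a GL peak, 86.4% and 82.9%. Where all 3 parents were marked, the shares were 96.7% in GL×93-11 (96.3% to 97.1%) and 96.9% in GL×TQ (96.5% to 97.3%). Both hybrids thus missed more of the members than of the regions of all 3 parents, also in the hybrid whose parents were both marked. This comparison is not matched for parental score, which was lower at the members. Where the lowest parental score was under 100, regions of all 3 parents had a peak at 91.1% in GL×93-11 and 92.5% in GL×TQ. At 200 or more the shares were 99.8% and 99.6%. The members are given by score below.

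**Figure D1:**
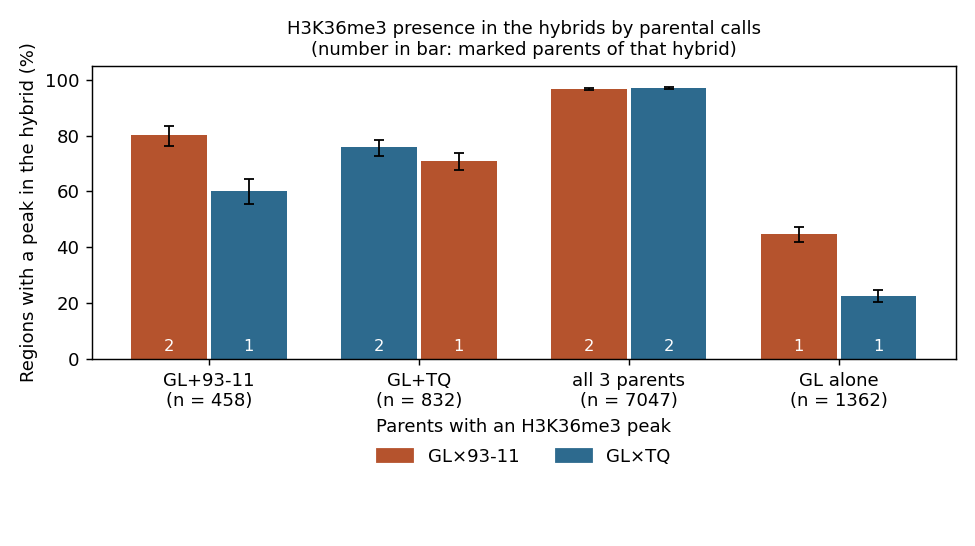
Share of H3K36me3 regions (%, vertical axis from 0) with a peak in each hybrid, by the set of marked parents, with 95% Wilson intervals as bars. The hybrid with 2 marked parents stands at 80.1% against 60.0% in GL+93-11 regions and at 75.7% against 70.9% in GL+TQ regions.

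The gap between the hybrids was 20.1 percentage points (14.8 to 25.4) at GL+93-11 regions and 4.81 points (0.908 to 8.71) at GL+TQ regions. The mean of the gaps was 12.4 points (9.17 to 15.7). The hybrid libraries also differed at equal parental state. At regions of GL alone, where each hybrid had 1 marked parent, a peak was called at 44.6% in GL×93-11 (41.9% to 47.2%) and at 22.5% in GL×TQ (20.3% to 24.8%). GL×93-11 was ahead there by 22.1 points (19.3 to 24.9), a direction that would widen the GL+93-11 gap and narrow the GL+TQ gap, and its part in either gap was not tested. Where all 3 parents were marked, GL×93-11 minus GL×TQ was -0.227 points (-0.746 to 0.292). With all lists kept to their 9505 highest-scoring peaks, the gaps were 11.2 and 14.5 points and their mean was 12.9 points. The order of the sets by gap was thus reversed in lists of equal length, and both gaps stayed above 0.

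Members called in only 1 hybrid make up these gaps, so their counts give the same asymmetry in another form. Of the GL+93-11 regions, 236 (51.5%) had a peak in both hybrids, 131 (28.6%) only in GL×93-11, 39 (8.52%) only in GL×TQ and 52 (11.4%) in neither. Of the GL+TQ regions, 472 (56.7%) had a peak in both, 158 (19.0%) only in GL×TQ, 118 (14.2%) only in GL×93-11 and 84 (10.1%) in neither. Over all merged regions, 12.7% had a peak in GL×93-11 and not in GL×TQ, and 7.89% in GL×TQ and not in GL×93-11. When exactly 1 hybrid was marked, it was the one with 2 marked parents at 131 of 170 GL+93-11 regions (77.1%, 70.2% to 82.7%). At GL+TQ regions the same held for 158 of 276 (57.2%, 51.4% to 62.9%). At equal parental state, GL×93-11 held 373 of 445 such regions of GL alone (83.8%, 80.1% to 86.9%). At regions of all 3 parents it held 166 of 348 (47.7%, 42.5% to 52.9%). The GL+93-11 share thus did not exceed the share of GL×93-11 at regions of GL alone. The median lower parental score was 87.5 in GL+93-11 regions of both hybrids, 73.8 and 66.1 in those of GL×93-11 only and GL×TQ only, and 58.7 in those of neither. In GL+TQ regions the same medians were 93.7, 73.0 for GL×TQ only, 64.6 for GL×93-11 only, and 61.3. Members without a peak in a hybrid thus had lower parental scores at the median.

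At strong parental peaks the gap stayed clear of counting error in the GL+93-11 set only. With both parental scores at 200 or more, GL×93-11 had a peak at 40 of 41 GL+93-11 regions (97.6%) and GL×TQ at 30 (73.2%), a gap of 24.4 points (11.2 to 37.5). In the same class of GL+TQ regions, GL×TQ had a peak at 65 of 67 (97.0%) and GL×93-11 at 62 (92.5%), a gap of 4.48 points (-1.98 to 10.9) that rests on 5 regions called in 1 hybrid and was not distinguishable from 0 by counting error. At lower scores of 100 to 200 the gaps were 11.1 points in 99 GL+93-11 regions and 16.6 points (10.4 to 22.8) in 199 GL+TQ regions. Under 100, GL×93-11 had a peak at 75.2% of 318 GL+93-11 regions against 52.8% in GL×TQ, while GL×TQ had one at 66.6% of 566 GL+TQ regions against 65.9% in GL×93-11. The gap of the weakest GL+TQ class, 0.707 points (-4.50 to 5.91), was not distinguishable from 0 either. The mean of the gaps was 11.5 points (7.24 to 15.8) in the weakest class, 13.8 points (8.29 to 19.4) in the middle class and 14.4 points (7.11 to 21.8) in the strongest, so the intervals overlap. At GL alone, GL×93-11 was ahead by 19.0, 27.1 and 22.3 points in these classes.

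**Figure D2:**
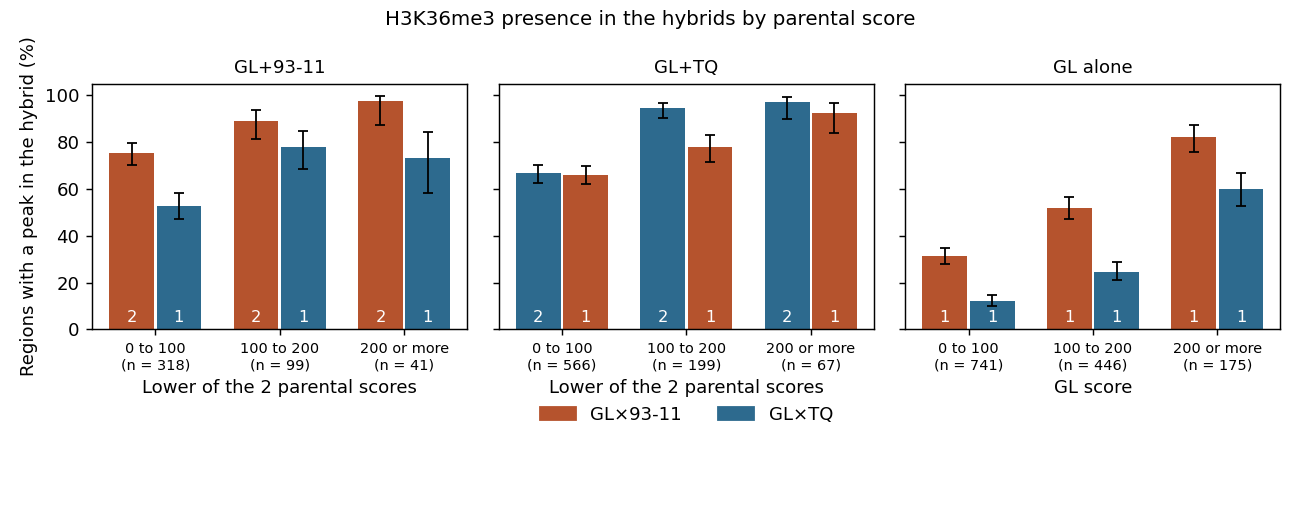
Share of regions with an H3K36me3 peak in each hybrid (%, vertical axis) by the class of the lower parental score (horizontal axis), with 95% Wilson intervals as bars, for GL+93-11 and GL+TQ regions. A further panel shows the regions of GL alone by the class of the GL score. At scores of 200 or more, the hybrid with 2 marked parents reaches 97.6% and 97.0%.

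The discordant members of the strong class are few. All 10 GL+93-11 regions with scores of 200 or more that were called in 1 hybrid were called in GL×93-11 (100%, 72.2% to 100%). Of such GL+TQ regions, 4 of 5 were called in GL×TQ. At regions of GL alone in this class, GL×93-11 held 46 of 53 (86.8%, 75.2% to 93.5%), although each hybrid had 1 marked parent. That interval overlaps the interval of the GL+93-11 regions. A pair of neighbouring GL+93-11 regions on chromosome 9 belongs to the 10. The first (8151205 to 8154029) had 602 tags in GL×93-11 and no peak in GL×TQ, with 803 tags in GL and 519 in 93-11. The second (8155645 to 8157845) had 711 tags in GL×93-11 (660 to 765) and no peak in GL×TQ, with 745 tags in GL and 582 in 93-11. The nearest TQ peaks were 11110 bp and 7294 bp away. Together they form a stretch that was marked in GL×93-11, GL and 93-11, and in neither GL×TQ nor TQ.

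Further examples were chosen after their values had been seen. One of the 4 GL+TQ regions of this class called only in GL×TQ lies on chromosome 11. This region (5810089 to 5811625) had 196 tags in GL×TQ and no peak in GL×93-11, with parental scores of 419 in GL and 373 in TQ. On chromosome 7, a GL+TQ region (22922922 to 22926123) went the other way, with no peak in GL×TQ and 759 tags in GL×93-11, beside 777 tags in GL and 834 in TQ. On chromosome 3, neighbouring GL+93-11 regions (8762762 to 8765986 and 8766303 to 8769880) had a peak in neither hybrid, although GL had 1394 and 1342 tags there and 93-11 had 906 and 929. A mark called in both parents was thus not always called in their hybrid.

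Over all members called in both hybrids, the level of H3K36me3 hardly differed between them. The median log2 ratio of the level with 2 marked parents over that with 1 was -0.01 at 236 GL+93-11 regions (quartiles -0.11 and 0.17) and 0.04 at 472 GL+TQ regions (-0.10 and 0.18). Its sign depended on the scaling in both sets, and the scaling moved the regions of all 3 parents as well: there the median log2 ratio of GL×93-11 over GL×TQ was -0.07, and 0.04 with the unique mapped reads as the total. The level was higher with 2 marked parents at 114 of 236 and at 280 of 472 regions. A level at least 1.5-fold higher with 2 marked parents was found at 2 GL+93-11 regions (0.847%) and at 11 GL+TQ regions (2.33%), against 0.0594% of all regions called in both hybrids for GL×93-11 and 0.202% for GL×TQ. The opposite difference occurred at 2 GL+93-11 regions and at 1 GL+TQ region.

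At strong parental peaks the GL+TQ regions had more H3K36me3 in the hybrid with 2 marked parents, and the GL+93-11 regions leaned the same way with values on both sides of 0. With both parental scores at 200 or more, the median log2 ratio was 0.23 (-0.04 and 0.37) at 30 GL+93-11 regions, a level 1.18-fold higher in GL×93-11. At 61 GL+TQ regions it was 0.38 (0.23 and 0.50), a level 1.30-fold higher in GL×TQ. The level was higher with 2 marked parents at 20 of 30 and at 59 of 61 of these regions. Median levels were 41.2 in GL×93-11 against 35.4 in GL×TQ at the GL+93-11 regions, and 36.4 in GL×TQ against 28.0 in GL×93-11 at the GL+TQ regions. The mean of the medians was 0.31, or 1.24-fold. Regions of all 3 parents in this class had a median of -0.08 for GL×93-11 over GL×TQ (1905 regions), and 98 regions of GL alone had 0.02. At scores of 100 to 200 the medians were 0.01 in GL+93-11 regions and 0.03 in GL+TQ regions, and under 100 they were -0.02 and 0.01.

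**Figure D3:**
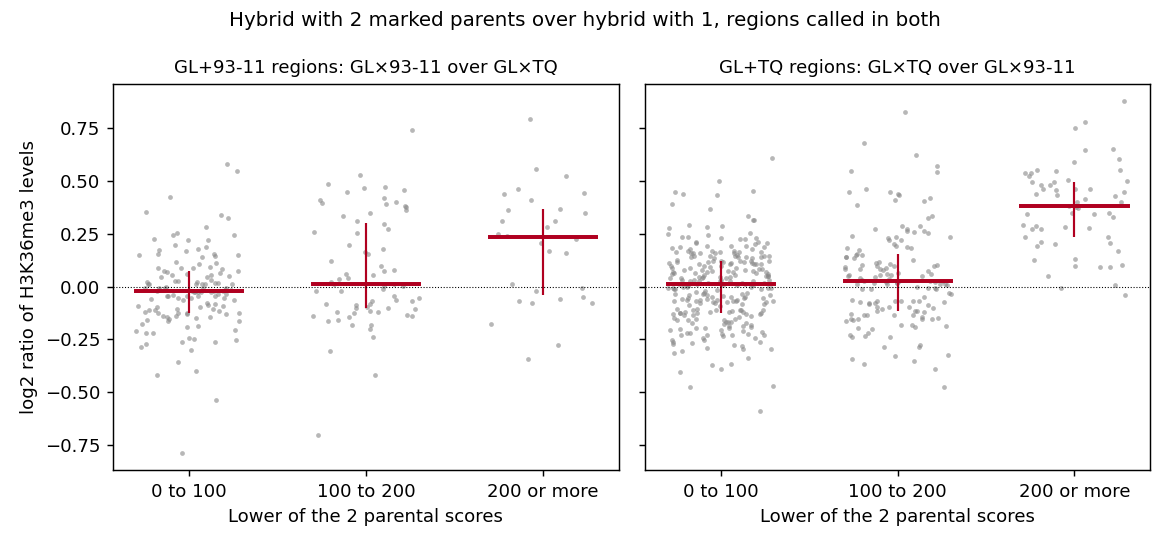
Log2 ratio of the H3K36me3 level in the hybrid with 2 marked parents over the hybrid with 1 (vertical axis), 1 point per member called in both hybrids, by the class of the lower parental score, with the median as a horizontal bar and the quartiles as a vertical line. The medians of the class of 200 or more are 0.23 and 0.38, while those of the other classes lie between -0.02 and 0.03.

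Among members of any score, only GL+93-11 regions had mostly higher scores with 2 marked parents, and neither set had wider peaks at the median. In the strong class, peaks were wider and scores mostly higher with 2 marked parents in both sets. In this class the median width of the peaks was 2589 bp in GL×93-11 and 2414 bp in GL×TQ at GL+93-11 regions, and 1890 bp in GL×TQ and 1498 bp in GL×93-11 at GL+TQ regions. The score was higher with 2 marked parents at 24 of 30 GL+93-11 regions (80.0%) and at 51 of 61 GL+TQ regions (83.6%). Over members of any score, the score was higher at 166 of 236 GL+93-11 regions (70.3%) and at 218 of 472 GL+TQ regions (46.2%), beside 48.3% for GL×93-11 at regions of all 3 parents. Set against the GL parent, whose scores also define the class, the median log2 ratio of the hybrid over GL at GL+93-11 regions was -0.05 in GL×93-11 and -0.30 in GL×TQ. At GL+TQ regions it was -0.02 in GL×TQ and -0.42 in GL×93-11. At regions of GL alone, where every hybrid has 1 marked parent, it was -0.39 in both hybrids.

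The 8 members with the highest lower parental score in each set are the top of the strong class. Their values need not match its medians. On chromosome 6, the GL+93-11 region from 20694808 to 20696589 had 571 tags in GL×93-11 (525 to 620) and 386 in GL×TQ (348 to 426), beside 657 in GL and 487 in 93-11. Its levels were 51.4 in GL×93-11 and 41.4 in GL×TQ, a ratio of 1.24 (1.09 to 1.42), with 55.5 in GL and 51.1 in 93-11. It had the highest parental scores of all members, 1119 in GL and 738 in 93-11.

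The largest level ratio among the 6 of these GL+93-11 regions that both hybrids shared was on chromosome 7 (11720246 to 11722504). There GL×93-11 had 515 tags (471 to 561) and GL×TQ 172 (147 to 200), beside 672 in GL and 324 in 93-11. The levels of 36.7 in GL×93-11 and 21.2 in GL×TQ differed by a ratio of 1.73 (1.46 to 2.07), and the score was 489 in GL×93-11 and 73.0 in GL×TQ. A further region on chromosome 7 (14916064 to 14918450) had 483 tags in GL×93-11 and 190 in GL×TQ, a level ratio of 1.29 (1.09 to 1.54). All 6 ratios had intervals above 1, with a range of 1.18 to 1.73 and a median of 1.27. The remaining regions of the 8 are the pair on chromosome 9 that GL×TQ lacked.

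Among GL+TQ regions, all 8 had a peak in both hybrids. The highest lower score was found on chromosome 8 (15196693 to 15199303), with 816 tags in GL×TQ (761 to 874) and 626 in GL×93-11 (578 to 677), beside 985 in GL and 892 in TQ. The level ratio was 1.26 (1.133 to 1.399). The narrow region on chromosome 3 from 22105515 to 22106772 had 276 tags in GL×TQ (244 to 311) and 178 in GL×93-11 (153 to 206), beside 285 in GL and 310 in TQ. Its fold enrichment was 7.18 in GL×TQ and 4.53 in GL×93-11, with 7.32 in GL and 7.23 in TQ, so GL×TQ lay close to both parents and GL×93-11 below them.

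On chromosome 11, the region from 18850913 to 18853304 had 676 tags in GL×TQ and 431 in GL×93-11, beside 719 in GL and 775 in TQ. Its ratio of 1.47 (1.30 to 1.66) was the highest of the 8. The exception stood on chromosome 12 (13808805 to 13810634), with 433 tags in GL×TQ, 493 in GL×93-11, 553 in GL and 466 in TQ, and levels of 47.8 in GL×TQ and 47.6 in GL×93-11. The intervals of 7 of the 8 ratios lay above 1, and the median ratio was 1.32. These intervals do not cover the choice of scaling. With unique mapped reads as the total, the median log2 ratio of the strong GL+TQ class was 0.27 instead of 0.38. The intervals of the single regions were not computed with that total.

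**Figure D4:**
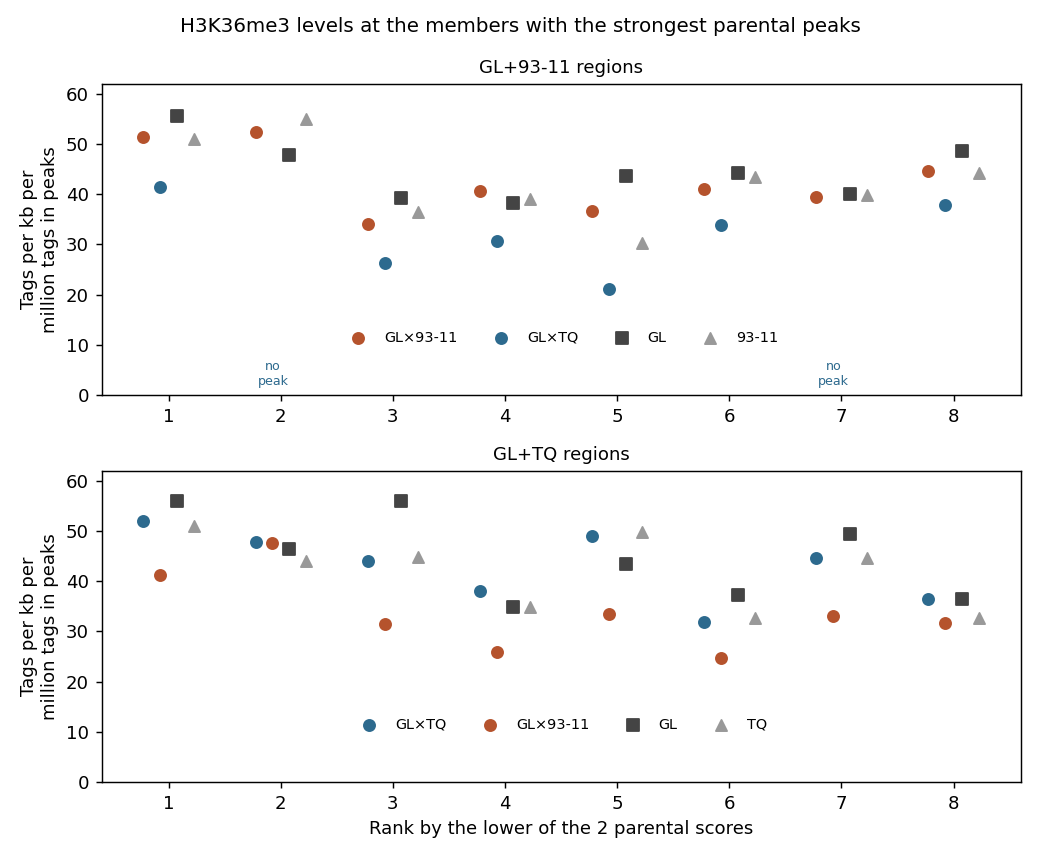
H3K36me3 level (tags per kb per 1000000 tags in peaks, vertical axis) of the hybrids (circles) and of the marked parents (squares and triangles) at the 8 members per set with the highest lower parental score, ranked from 1. The hybrid with 2 marked parents lies above the hybrid with 1 in the GL+93-11 regions that both hold, by ratios of 1.18 to 1.73, and GL×TQ lacks a peak at ranks 2 and 7.

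The lead of GL×TQ at GL+TQ regions was seen at narrow members, a difference by width that was not tested. Where the GL peak was under 2 kb, GL×TQ had a peak at 76.4% of 495 regions and GL×93-11 at 67.7%. From 2 to 3 kb the shares were 76.8% in GL×TQ and 76.2% in GL×93-11 (181 regions), and from 3 kb they were 72.4% in GL×TQ and 75.0% in GL×93-11 (156 regions). In GL+93-11 regions the hybrid with 2 marked parents was ahead at every width, with 81.8% in GL×93-11 and 56.1% in GL×TQ under 2 kb (148 regions), 78.7% and 57.4% from 2 to 3 kb (108 regions), and 79.7% and 64.4% from 3 kb (202 regions). Few members had a peak of the third parent within 1 kb, and their shares have wide intervals. There a peak was called at 73.0% in GL×93-11 and 64.9% in GL×TQ for GL+93-11 regions, and at 66.0% in GL×TQ and 68.0% in GL×93-11 for GL+TQ regions. Beyond 1 kb the shares were 80.8% in GL×93-11 and 59.6% in GL×TQ, and 76.3% in GL×TQ and 71.1% in GL×93-11.

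The members were found on all 12 chromosomes. GL+93-11 regions made up 3.36% to 6.16% of the regions with a GL peak on a chromosome, and GL+TQ regions 5.48% on chromosome 5 to 11.7% on chromosome 8. The presence gap was above 0 on 11 of 12 chromosomes in the GL+93-11 set, from -4.55 points on chromosome 10 to 39.3 points on chromosome 5. In the GL+TQ set it was above 0 on 7 of 12 and below 0 on 4, from -8.51 points on chromosome 9 to 16.9 points on chromosome 12. The next merged region was of the same set for 35 of 457 GL+93-11 regions (7.66%), while the set made up 3.49% of all regions. For GL+TQ regions it was 57 of 831 (6.86%), against 6.34% of all regions. The window of 500 kb with most GL+93-11 regions, on chromosome 4 from 18000001 to 18500000, held 7 of them among 23 regions, with peaks at 7 in GL×93-11 and at 6 in GL×TQ. The next windows held 4 each, on chromosome 6 (20000001 to 20500000) with peaks at 4 in GL×93-11 and at 0 in GL×TQ, on chromosome 9 (11500001 to 12000000) with 4 in GL×93-11 and 2 in GL×TQ, and on chromosome 11 (6000001 to 6500000) with 2 in GL×93-11 and 3 in GL×TQ. Most GL+TQ regions in a window, 8 of 34, lay on chromosome 1 from 30500001 to 31000000, with peaks at 5 in GL×TQ and at 3 in GL×93-11. The next, on chromosome 4 (22500001 to 23000000) and chromosome 10 (1500001 to 2000000), held 6 each, with peaks at 6 in GL×TQ and at 5 in GL×93-11 in both.

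H3K27me3, which the choice of members did not use, overlapped the members in GL more often than the regions of all 3 parents, but not more often than the regions of GL alone. Of GL+93-11 regions, 56 had an H3K27me3 peak in GL (12.2%, 9.54% to 15.5%), and of GL+TQ regions 110 (13.2%, 11.1% to 15.7%), beside 7.05% of the regions of all 3 parents, 14.3% (12.6% to 16.3%) of the regions of GL alone and 8.46% of all merged regions. The share was highest in GL in each of these sets, and GL also had the longest H3K27me3 list, with 9639 peaks against 8385 to 9054 in the other libraries, whose part in these shares was not tested. In the hybrids the share was lower, at 9.39% in GL×93-11 and 8.52% in GL×TQ for GL+93-11 regions, and at 8.29% in GL×TQ and 8.89% in GL×93-11 for GL+TQ regions. Of all merged regions, 6.91% had an H3K27me3 peak in GL×93-11 and 6.48% in GL×TQ. The parent without H3K36me3 did not carry H3K27me3 in its place at most members. TQ had an H3K27me3 peak at 37 GL+93-11 regions (8.08%, 5.92% to 10.9%) and 93-11 at 72 GL+TQ regions (8.65%, 6.93% to 10.8%), beside 6.68% for TQ and 6.86% for 93-11 over all merged regions. None of the 3 parents had one at 388 GL+93-11 and 686 GL+TQ regions.

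**Figure D5:**
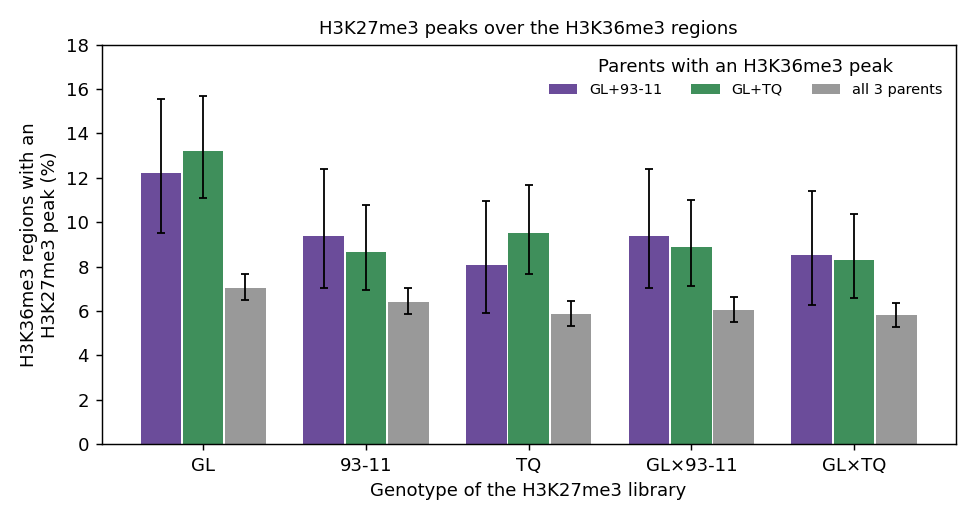
Share of H3K36me3 regions (%, vertical axis from 0) with an overlapping H3K27me3 peak in each genotype (horizontal axis), for GL+93-11 regions, GL+TQ regions and regions of all 3 parents, with 95% Wilson intervals as bars. GL stands at 12.2% and 13.2% of the members and at 7.05% of the regions of all 3 parents.

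A swap of marks, with H3K27me3 in the third parent and in neither parent that carried H3K36me3, was seen at few members. It occurred at 4 GL+93-11 regions (0.873%, 0.340% to 2.22%). The same H3K27me3 calls, in TQ and in neither GL nor 93-11, were found at 36 regions of all 3 parents (0.511%, 0.369% to 0.706%). There TQ carried H3K36me3 too, so those regions are no swap. Over all merged regions, whatever their H3K36me3, the share with these calls was 0.717%. At GL+TQ regions a swap occurred at 22 (2.64%, 1.75% to 3.97%). H3K27me3 in 93-11 and in neither GL nor TQ was called at 91 regions of all 3 parents (1.29%, 1.05% to 1.58%). The share over all merged regions was 1.53%. The share at GL+TQ regions lay above both, a difference that was not tested. Of the 22 GL+TQ regions, H3K27me3 was called at 2 in GL×TQ and at 5 in GL×93-11, the hybrid that holds the 93-11 genome. H3K36me3 was called at 18 in GL×TQ and at 14 in GL×93-11. Of the 91 regions of all 3 parents, H3K27me3 was called at 15 in GL×TQ and at 35 in GL×93-11. H3K36me3 was called at 88 of these 91 regions in GL×TQ and at 90 in GL×93-11. In both groups H3K27me3 was thus called more often in GL×93-11, and the counts at the members are too few for a closer comparison. Of the 4 GL+93-11 regions, H3K27me3 was called at 1 in GL×93-11 and at 2 in GL×TQ. The chromosome 11 region from 18850913 to 18853304 described above was one of the 22 GL+TQ regions. It had an H3K27me3 peak of 248 tags in 93-11 (218 to 281) and none in either hybrid. Another of the 22 GL+TQ regions, chosen after its values had been seen, lies on chromosome 5 (14267870 to 14269385). This region had 247 H3K27me3 tags in 93-11. It had an H3K27me3 peak in GL×93-11 but not in GL×TQ. Allelic reads were not analysed here, so which parental copy carried a mark in a hybrid was not measured.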

How the data were processed

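The authors filtered the reads, aligned them with SOAP2 and ran MACS on each library. Their genome was Nipponbare, taken from Gramene, in a version not given here by any source used. The deposited lists give raw tag counts per peak, a fold enrichment ratio and a score. The heading of the score column is lost, and it was taken for minus 10 times log10 of the p-value from MACS, since each deposited list starts at about 50. Broad marks can be split into several peaks, and weak peaks drop out at the threshold. Peaks were merged at an overlap of 1 bp. The members and the classes were chosen with earlier results of these data known. The regions named are the 8 with the highest and the 3 with the lowest lower parental score per set and the 3 nearest to a peak of the third parent, other examples being marked as such. Shares carry 95% Wilson intervals, tags exact Poisson intervals, level ratios exact conditional intervals and gaps normal intervals of the paired difference. The counting was tested on simulated lists drawn from the GL peaks. Their peaks shared coordinates, so the merging of unlike intervals was not tested. Library totals for 1 alternative were the unique mapped reads that the study lists. Genes, allelic reads and expression were not analysed here. Scripts ran under Python 3.11.15 with pandas 2.3.3, numpy 2.4.6 and scipy 1.17.1, and figures were drawn with matplotlib 3.10.9.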

Additional observations from a re-analysis of the deposited data

Results flagged for a closer look

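The median log2 ratio of levels between the hybrids, with 2 marked parents over 1, had opposite signs in the sets, at -0.0075 in GL+93-11 regions and 0.045 in GL+TQ regions. The difference between the sets was not tested. Both values are small beside their quartiles, and both changed sign with the scaling.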

How the results depend on the processing

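The presence gap was above 0 in both sets and under all 8 alternatives, and the mean gap ranged from 12.3 to 22.0 points. With scores of 100 or more required in parents and hybrids, the mean gap was 22.0 points, the gaps were 26.4 points (GL+93-11) and 17.7 points (GL+TQ), and the hybrid with 2 marked parents held 83.6% and 74.7% of the regions called in 1 hybrid. With a score of 100 required in the parents only, the GL+TQ gap was 13.5 points and that share 86.0%. Both rules left 140 GL+93-11 and 266 GL+TQ regions. With equal list lengths the gaps were 11.2 and 14.5 points and the shares 64.8% and 71.8%.

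The median log2 level ratio turned in GL+93-11 regions to 0.075 with equal lists, 0.050 without scaling, 0.057 with parental scores of 100 or more, 0.013 with such scores in all libraries, and 0.10 with unique mapped reads as total, and was -0.034 per kb of merged region. In GL+TQ regions it turned to -0.051 with equal lists, -0.013 without scaling and -0.064 with unique mapped reads, and was 0.10 under either score rule. At parental scores of 200 or more it stayed above 0 under all 11 alternatives, from 0.22 to 0.43 in GL+93-11 regions and from 0.27 to 0.58 in GL+TQ regions. The causes were not tested. Samples could not be paired, because each genotype has 1 library and the labels give no replicate numbers. The gaps were paired by region only. A peak under the threshold of calling was not detectable at this depth, which does not show that the mark was absent.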
